A study of Homo sapiens with 6 samples.

Results

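The CDKN2A locus on 9p21 was described here by the ATAC-seq summits at chr9:21000000-23000000 (hg19) and by the promoters of 8 genes, MTAP, CDKN2A, CDKN2B, CDKN2B-AS1, DMRTA1, KLHL9, FOCAD and IFNE. The window and the genes were chosen by position and name, with earlier results of these data known. A promoter was the sequence within 1 kb of any annotated start site of a gene, and a summit is the highest point of a peak of transposase-accessible DNA. None of the 36694, 30477 and 33552 summits of the Parental libraries and none of the 29762, 40650 and 34262 summits of the SAP30-KO1 libraries lay in the window. The 8 genes were taken from 20099 genes tabulated, and 1 of them, FOCAD, had a promoter summit.

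All libraries came from MDA-MB-231, a long-established cell line of a human breast cancer that lacks the hormone receptors and HER2 (triple negative). The Parental group (n = 3) was the unedited line. The SAP30-KO1 group (n = 3) was the same line after CRISPR/Cas9 knockout of SAP30, a subunit of the SIN3 histone deacetylase complex, and by the study's methods it was a pool of more than 1 expanded knockout cell rather than a single clone. A summit list cannot show whether the SAP30 protein was lost, so the labels were taken as given. The study reports that its knockout cells were checked by immunoblot. No time course separated the groups. By the study's methods, guide delivery, puromycin selection and expansion of single cells went into making knockout lines, so these steps also separated the groups. Their effect was not tested, and no library was labelled as a control guide. The sources used here do not say whether the replicates were separate cultures. The p-values therefore measure only the spread between these libraries, which may be technical.

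The 9p21 genes hold several brakes on the cell cycle. CDKN2A has separate start sites for 2 unrelated proteins. The INK4A protein inhibits the cyclin D kinases CDK4 and CDK6 and so keeps RB1 active, and the ARF protein restrains the ubiquitin ligase MDM2. CDKN2B encodes a close relative of INK4A that responds to TGF-β, and CDKN2B-AS1, also called ANRIL, is a long noncoding RNA transcribed from the opposite strand. MTAP recycles methylthioadenosine into the methionine salvage pathway, KLHL9 is a substrate adaptor of the CUL3 ubiquitin ligase, IFNE is a type I interferon of epithelia, DMRTA1 is a DM-domain transcription factor, and FOCAD encodes focadhesin. The locus is among the most frequent homozygous deletions of human cancers, often with MTAP, and MDA-MB-231 is catalogued as a line that has lost CDKN2A. A summit list holds no reads between its peaks. Sequence that is present but closed and sequence that is absent from the genome therefore cannot be told apart here, and DNA copy number was not tested.

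Promoter sequences are shown for MTAP, CDKN2A and CDKN2B, which have starts rich in CpG inside the empty region, and for FOCAD, the open gene at its edge, so that the sequence in front of empty and open starts can be read side by side. Each run gives the 200 bases before a start site on GRCh37 (hg19), 5′ to 3′ on the gene's own strand, and capitals mark the GC box, the letters GGGCGG or their complement CCGCCC.
FOCAD (chr9:20684058-20684257, + strand): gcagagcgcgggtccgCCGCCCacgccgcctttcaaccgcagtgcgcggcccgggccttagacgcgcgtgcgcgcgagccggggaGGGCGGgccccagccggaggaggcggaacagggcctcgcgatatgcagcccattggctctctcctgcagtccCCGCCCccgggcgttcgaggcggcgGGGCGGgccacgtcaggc
MTAP (chr9:21802435-21802634, + strand): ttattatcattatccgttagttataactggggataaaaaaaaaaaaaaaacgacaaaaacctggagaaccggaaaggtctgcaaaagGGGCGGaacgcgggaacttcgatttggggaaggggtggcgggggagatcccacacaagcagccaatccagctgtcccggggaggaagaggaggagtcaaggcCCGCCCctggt
CDKN2A, the start of the INK4A transcript (chr9:21974866-21975065, − strand): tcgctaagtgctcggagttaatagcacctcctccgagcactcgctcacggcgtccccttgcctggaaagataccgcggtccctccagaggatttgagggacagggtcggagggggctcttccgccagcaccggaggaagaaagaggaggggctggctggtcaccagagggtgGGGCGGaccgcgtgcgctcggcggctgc
CDKN2A, the upstream start (chr9:21995301-21995500, − strand): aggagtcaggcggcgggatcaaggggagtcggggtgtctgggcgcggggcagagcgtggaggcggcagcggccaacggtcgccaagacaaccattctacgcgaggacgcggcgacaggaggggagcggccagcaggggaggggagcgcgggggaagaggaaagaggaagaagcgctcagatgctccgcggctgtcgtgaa
CDKN2B (chr9:22009305-22009504, − strand): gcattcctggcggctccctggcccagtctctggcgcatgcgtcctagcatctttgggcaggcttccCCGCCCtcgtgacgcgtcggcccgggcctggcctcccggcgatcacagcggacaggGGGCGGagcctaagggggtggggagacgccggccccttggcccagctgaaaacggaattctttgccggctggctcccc
FOCAD had 4 GC boxes in these bases, MTAP 2, CDKN2B 2, the downstream start of CDKN2A 1 and its upstream start 0. Over the canonical starts of 763 protein-coding genes on chromosome 9, 60.2% had at least 1 GC box in the same 200 bases. None of the 5 runs overlapped an annotated coding or untranslated part of an exon. Exons of noncoding genes have no such parts. The run before the upstream start of CDKN2A and that before CDKN2B lay within the span of the noncoding gene CDKN2B-AS1. A match is a description of the letters and not of bound protein.

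The longest stretch with no summit in any library began at 20732354, inside FOCAD, and ended at 24912809, in intergenic sequence. It was 4180 kb (4.18 Mb) long, contained the whole 2 Mb window, started 267.6 kb before it and ended 1913 kb after it. The stretch had no unknown base in the assembly and made up 8.83% of 9p, with a GC content of 37.0% against 39.1% for the arm. Summits of the 6 libraries within 250 bp of each side were merged into 518 loci on 9p, or 10.9 per Mb. The 508 spacings between neighbouring loci of the arm had a median of 30.6 kb and a 95th percentile of 251.4 kb. The empty stretch was 137-fold the median and 2.095-fold the second longest spacing, since the next 3 were 1995, 1816 and 1711 kb, and only these 4 of the arm were over 1 Mb. Its flanks held 69 loci in the 5 Mb before it and 62 in the 5 Mb after it. The loci there were unevenly spread. The flank before it included the empty 1816 kb, and the flank after it included empty runs of 764.6 and 544.0 kb close to the edge.

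**Figure D1:**
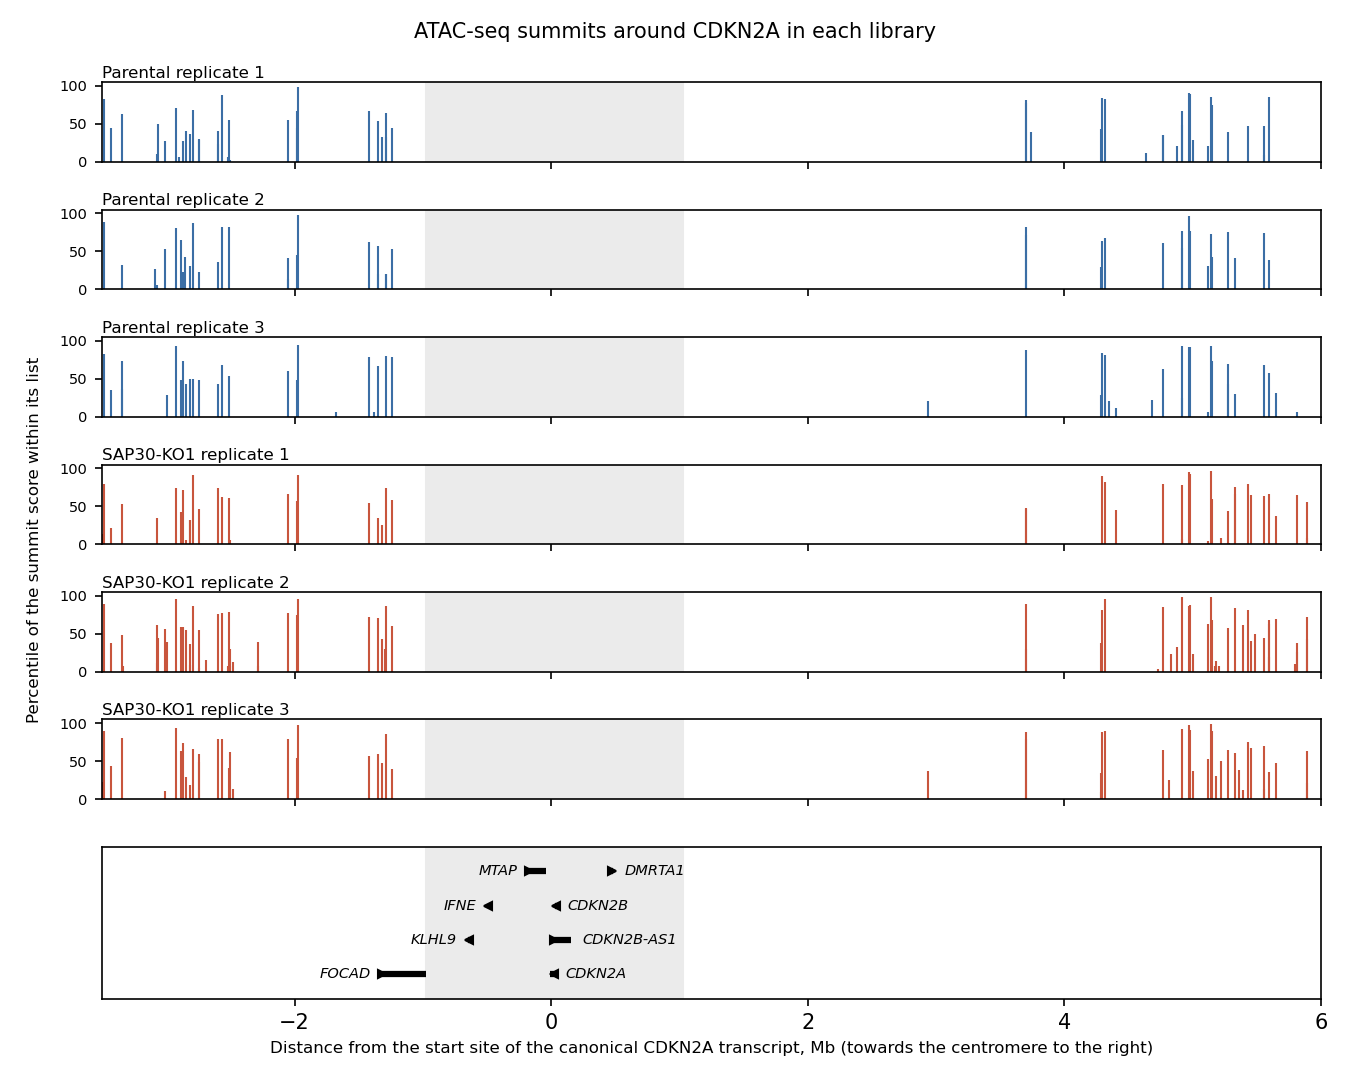
Summits around CDKN2A in each library. The x axis is the distance in Mb from the start site of the canonical CDKN2A transcript, each vertical line is a summit with its score as a percentile of its own list, the grey band is the 2 Mb window, and the bottom panel shows the 8 genes with arrowheads at their start sites. All 6 libraries are empty from the first part of FOCAD to at least 2.94 Mb beyond CDKN2A.

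The stretch was found in each library by itself. From the last summit before it to the first after it, the distance was 4945 kb, 4946 kb and 4180 kb in Parental replicates 1, 2 and 3, and 4945 kb, 4945 kb and 4181 kb in SAP30-KO1 replicates 1, 2 and 3. In every library this was the longest spacing on 9p, where the second longest ranged from 1995 to 3427 kb and the median from 40.1 to 61.5 kb. The left edge lay between 20732148 and 20732354 in the 6 libraries. The right edge had 2 positions. A locus at 24912559-24913115, 7370 bp from the nearest start site, had a summit in Parental replicate 3 (percentile 20.7) and SAP30-KO1 replicate 3 (percentile 36.7) and in none of the other 4 libraries. In those 4 the first summit after the stretch was in the promoter of TUSC1, whose 2 loci were present in 5 and in all 6 libraries. The mean length was 4690 ± 442 kb in Parental and 4690 ± 441 kb in SAP30-KO1 libraries (SD, n = 3 each). The difference of -0.113 kb was far below the SD of either group (two-sided exact permutation test, p = 0.7, where 3 against 3 cannot go below 0.1). Nearly all of the spread came from the locus at 24912559-24913115, called in replicate 3 of each group. The test therefore says little beyond that.

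With 0 summits in every library, the window gave nothing to compare between the groups. The arm as a whole did. The libraries had 321, 266 and 317 summits on 9p in the Parental group and 281, 386 and 309 in the SAP30-KO1 group. The counts of the groups overlapped. As a share of all summits of a library, 9p held 0.897% ± 0.0410 in Parental and 0.932% ± 0.0261 in SAP30-KO1 libraries (SD, n = 3 each; two-sided exact permutation test, p = 0.3). Over the genome, 2.31% of 56403 loci were present in all 3 libraries of one group and in none of the other. With 0 loci, the window had none of this kind.

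Whether such an empty region is usual for its length and gene content was asked of the other arms. Over 41 chromosome arms, 56180 spacings between loci had a median of 24.3 kb, and the 9p21 stretch was the longest of them, ahead of 3323 kb on 7q and 2487 kb on 2q. Relative to the median of its own arm it was also the longest, at 137-fold against 106-fold for the longest spacing of 7q. It led in the number of genes as well, though not in genes per length. The starts of 24 protein-coding genes lay entirely inside the 9p21 stretch, whereas 272 stretches of at least 500 kb had a median of 0 such genes, 160 had none, and the highest number in any other was 20, in 544 kb of 12q. Promoters rich in CpG had a CpG ratio of at least 0.75 and a GC content of at least 55% in 1001 bp around a start. They belonged to 4 of the 24 genes, CDKN2A, CDKN2B, MTAP and the neuronal RNA-binding protein gene ELAVL2. Any other stretch had at most 3. A stretch with 3 on Xp was 687 kb long, so here too the lead was not one per length. On 9p itself, the stretch of 1816 kb held 3 genes, all of them rich in CpG, and that of 1995 kb held none.

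**Figure D2:**
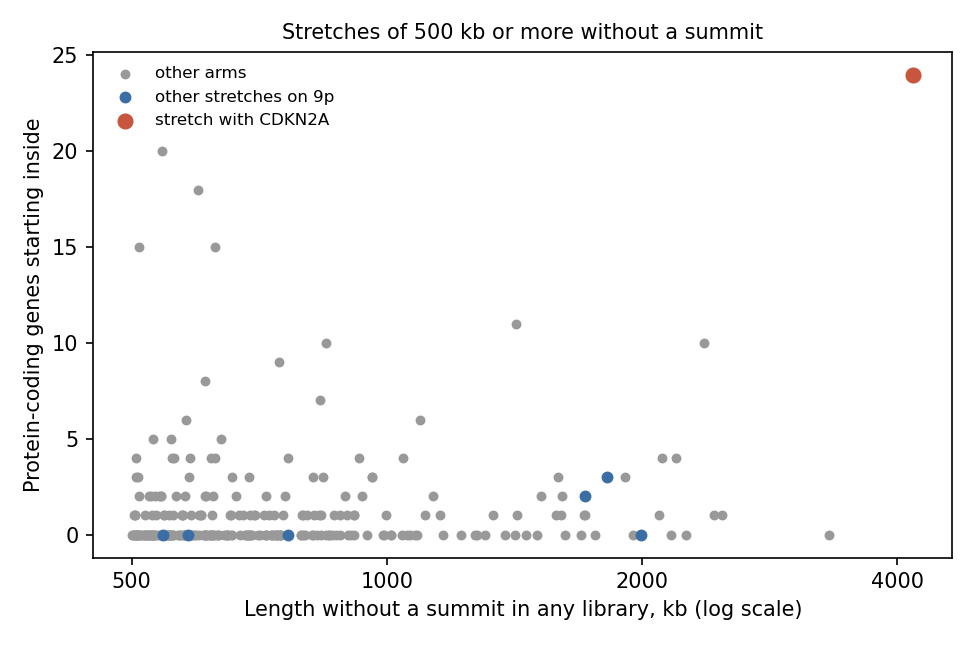
Stretches of at least 500 kb without a summit in any library. The x axis is the length in kb on a log scale and the y axis the number of protein-coding genes whose starts all lie inside, with 1 point for each of 272 stretches. The stretch with CDKN2A is at the top right with 4180 kb and 24 genes, and the remaining stretches of 9p hold at most 3 genes.

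Windows of equal size were counted as well. On a fixed grid of 2 Mb that the CDKN2A window fits exactly, 3 of 1263 windows had no summit in any library, which is 0.238%. The other 2 empty windows had 1 and 0 protein-coding genes, against 22 in the CDKN2A window. These counts depend on where the grid lies, since an empty stretch can cross its borders. The stretch of 2364 kb on Xq, with 10 genes inside, gave no empty window. The other windows on 9p had a median of 27 loci, from 1 to 53, and a median of 5 genes. Of 205 windows with at least as many genes as the CDKN2A window, the lowest number of loci apart from it was 2 and the median was 53.

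**Figure D3:**
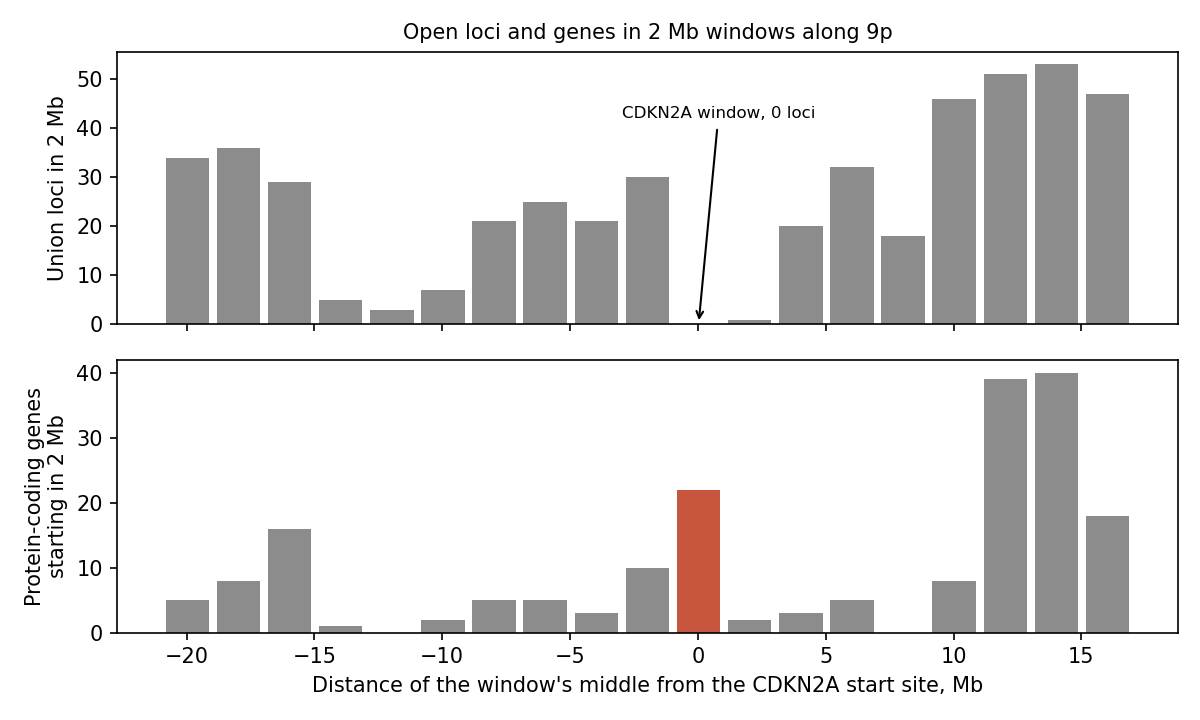
Loci and protein-coding genes in 2 Mb windows along 9p. The x axis is the distance in Mb of each window's middle from the CDKN2A start site, the upper bars count loci of the 6 libraries together and the lower bars count genes with a start in the window. The CDKN2A window, in red, has 0 loci and 22 genes, and the window to its right has 1 locus.

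The cell cycle inhibitors of the locus lay deep in the empty stretch. CDKN2A (ENSG00000147889.18_15, chr9:21967751-21995300, − strand) has 13 annotated starts, and the one nearest to a summit was 1238 kb away from it. CDKN2B (ENSG00000147883.12_9, chr9:22002902-22009304, − strand) has 3 starts and its nearest summit was at 1274 kb. For CDKN2B-AS1 (ENSG00000240498.9_10, chr9:21994138-22128102, + strand), with 17 starts, the distance was 1262 kb. Each of the 3 genes had percentile 0, meaning no promoter summit, in all 6 libraries. The sequence at their starts was rich in CpG. The CpG ratio around the canonical start was 0.780 with 62.6% GC for CDKN2A, 0.944 with 61.2% GC for its upstream start, 0.830 with 61.9% GC for CDKN2B and 0.932 with 62.3% GC for CDKN2B-AS1. A missing promoter summit in all 6 libraries was found for 37.5% of 20098 protein-coding genes, and for 17.4% of the 9804 whose promoters were rich in CpG. On either background a single gene without a summit is common, and the genes of 1 stretch are not independent of each other.

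The metabolic and remaining genes of the locus also had no promoter summit in any library. MTAP (ENSG00000099810.21_12, chr9:21802635-21937650, + strand), with 13 starts, was 1070 kb from the nearest summit and had a CpG ratio of 0.781 with 60.4% GC. DMRTA1 (ENSG00000176399.4_6, chr9:22446823-22455739, + strand) was the farthest of the 8 genes, at 1714 kb, with a CpG ratio of 0.729. KLHL9 (ENSG00000198642.7_8, chr9:21329664-21335403, − strand) was 603 kb away, with a CpG ratio of 0.777 and 53.2% GC. IFNE (ENSG00000184995.7_8, chr9:21480838-21482312, − strand) was 750 kb away and had a promoter poor in CpG, with a ratio of 0.165 and 31.3% GC. Among all protein-coding genes the median distance to a summit was 0.107 kb and the 95th percentile was 77.6 kb. Only 78 genes, or 0.388%, were over 500 kb from any summit, and 14 of these lay in the 9p21 stretch, among them IFNE and 7 genes of the interferon cluster described next. Of the 16 such genes with a promoter rich in CpG, 4 were CDKN2A, CDKN2B, MTAP and ELAVL2.

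The type I interferon cluster between FOCAD and MTAP had no summit either. All 15 of its listed genes, IFNB1, IFNW1 and 13 IFNA genes, had no promoter summit in any library. This follows from their place inside the empty stretch. Over the genome, 37.5% of 20098 protein-coding genes had no promoter summit in any library. These genes are induced by viral infection, and none of their promoters was rich in CpG. HACD4, which acts in the elongation of fatty acids, ELAVL2 and IZUMO3, a sperm protein gene, completed the 24 protein-coding genes and had their nearest summits at 294, 1086 and 367 kb. In all, 76 genes of any type with 164 start sites began in the stretch, and 58 genes with 122 start sites began in the window, 10 of them long noncoding RNA genes.

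FOCAD (ENSG00000188352.13_8, chr9:20658308-20995954, + strand) was the exception among the 8 genes and held the edge of the stretch. Its promoter percentile was 64.8, 20.6 and 80.3 in Parental replicates 1, 2 and 3 and 73.8, 86.9 and 85.5 in SAP30-KO1 replicates 1, 2 and 3. A summit was present in all 6 libraries, as for 34.7% of protein-coding genes. Parental replicate 2 was low, and the ranges of the groups overlapped. The mean was 55.2 ± 31.0 in Parental and 82.1 ± 7.22 in SAP30-KO1 libraries (SD, n = 3 each). The difference of 26.8 percentile points did not exceed the replicate spread (two-sided exact permutation test, p = 0.2, adjusted p = 1 over 12564 genes with a promoter summit), and it was 9.52 without Parental replicate 2. For comparison, the percentiles of the groups did not overlap for 10.6% of these genes.

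Within FOCAD the summits were confined to its 5′ part. The gene is 338 kb long and its 4 loci lay in the first 74.0 kb, so that the last 264 kb, or 78.1% of the gene, had no summit. It has 16 annotated starts, of which 12 lay in the empty stretch and were at 0 in every library. The canonical start at 20684258 carried the promoter values above. The most upstream start, at 20658308, had percentiles of 33.4, 0 and 0 in Parental and 25.9, 42.9 and 47.6 in SAP30-KO1 libraries. One Parental library was thus above the lowest SAP30-KO1 library. The means were 11.1 ± 19.3 and 38.8 ± 11.4 (SD, n = 3 each; two-sided exact permutation test, p = 0.2). Their difference of 27.7 was larger than either SD, but the groups overlapped. A locus at 20678571-20679071 had a summit in SAP30-KO1 replicate 2 only. The intronic locus that bounds the stretch, at 20731898-20732604 and 5.90 kb from the nearest start, was present in all 6 libraries with percentiles of 44.3, 53.5 and 78.8 in Parental and 57.9, 60.1 and 40.3 in SAP30-KO1 libraries. The group means were 58.9 ± 17.8 and 52.8 ± 10.8 (SD, n = 3 each; two-sided exact permutation test, p = 0.8). The values of the groups overlapped.

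The sequences of the FOCAD loci were described by the 501 bp at the middle of each, which for a longer locus is not its whole length. The middle of the canonical promoter locus had 70.5% GC and a CpG ratio of 0.766 with 3 GGGCGG letters on either strand, whereas that of the intronic locus at the edge had 41.9% GC, a CpG ratio of 0.241 and none. In the same 501 bp, GGGCGG was found in 28.5% of all 56403 loci and in 41.8% of the 16309 loci present in all 6 libraries. The AP-1 letters TGANTCA, which were found in 44.2% of all loci, were not found in the middle of either of these 2 loci and occurred 1 time in the locus seen in SAP30-KO1 replicate 2 only. The middle of the intronic locus held 1 CCAAT, and 47.6% of all loci held at least 1.

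**Figure D4:**
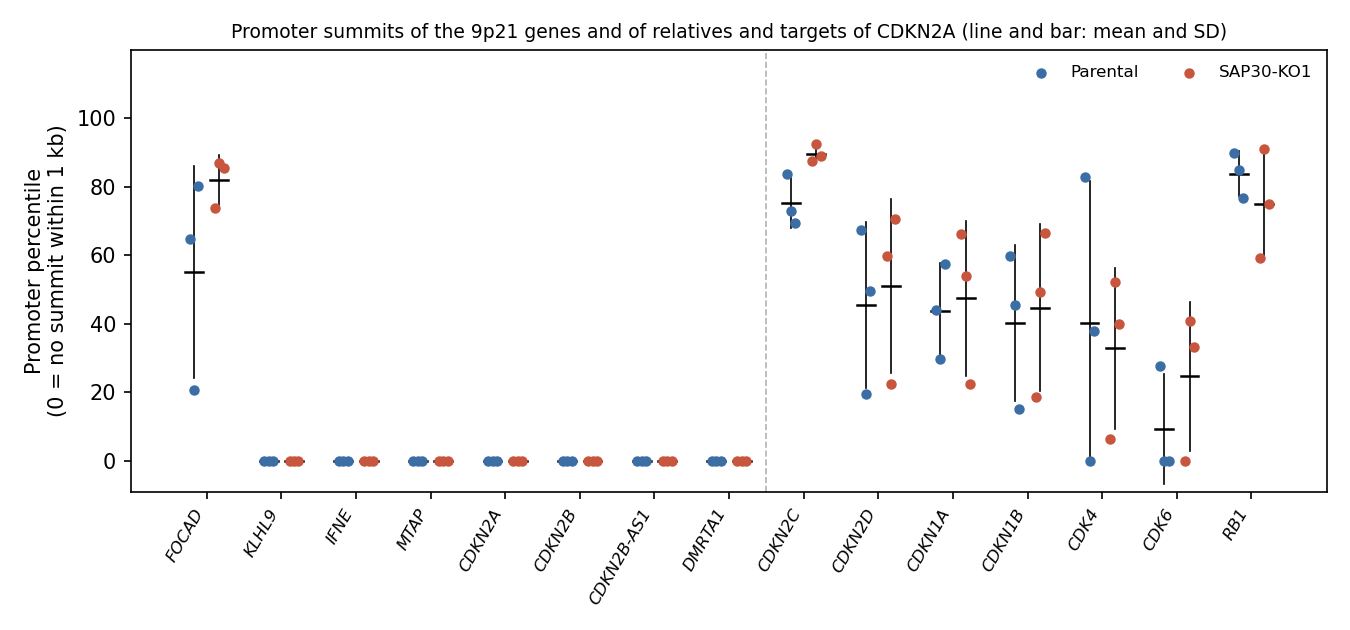
Promoter percentiles by library for the 8 genes of 9p21 (left of the dashed line) and for 7 genes of the pathway (right). The y axis is the percentile of the strongest summit within 1 kb of any start site, 0 where there is none, points are libraries, horizontal lines are means and vertical bars are SD (n = 3). FOCAD is the single gene of the locus above 0, and CDKN2C is the single gene shown whose groups do not overlap.

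To set the locus beside its pathway, 20 genes elsewhere in the genome that act with the products of the locus were measured. Promoter summits were found in all 6 libraries for 11 of the 20, in 1 to 5 libraries for 5 and in none for 4. Over all protein-coding genes, 34.7% had a promoter summit in all 6 libraries and 37.5% had none. Of those with promoters rich in CpG, 17.4% had none. RB1, the target of the cyclin D kinases, had percentiles of 89.9, 84.8 and 76.9 in Parental and 59.2, 91.0 and 75.1 in SAP30-KO1 libraries. PRMT5, an arginine methyltransferase that methylthioadenosine inhibits, was high in all libraries, from 77.9 to 98.5. The 4 genes without a summit were the D-type cyclins CCND1 and CCND2, the inhibitor CDKN1C and the activator E2F2, and all 4 had promoters rich in CpG, so that genes outside the stretch also lacked summits at such promoters.

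The groups did not overlap for 3 of the 20 pathway genes, or of the 16 with a promoter summit, and all 3 were higher in SAP30-KO1. CDKN2C, the INK4 inhibitor encoded on chromosome 1, had percentiles of 83.8, 73.0 and 69.6 in Parental and 87.6, 92.5 and 89.0 in SAP30-KO1 libraries, a difference of 14.2. RBL2, a relative of RB1, had 10.8, 41.4 and 38.01 in Parental and 73.8, 62.3 and 69.2 in SAP30-KO1 libraries, a difference of 38.3. MDM2, the ubiquitin ligase that ARF restrains, had 0, 0 and 3.14 in Parental and 4.03, 25.7 and 23.4 in SAP30-KO1 libraries, a difference of 16.7. The MDM2 groups were kept apart only by 3.14 against 4.03, both near the bottom of their lists. Each had the smallest p the design allows (two-sided exact permutation test, p = 0.1), and none passed after adjustment over all genes (adjusted p = 0.945). Over the genome, 6.01% of genes with a promoter summit had percentiles that did not overlap and were higher in SAP30-KO1. The median difference was 4.19 over the 16 pathway genes with a summit and 0.679 over all genes with one.

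The identity of the cells was checked at 12 marker promoters. VIM and CD44, markers of mesenchymal breast cancer cells, had a summit in all 6 libraries, and ZEB1 and AXL each had one in 3. CDH1, the epithelial cadherin, and PTPRC, a gene of blood cells, had none. ESR1 and PGR, the hormone receptor genes, each had a summit in 1 library, ERBB2 in 4, and EPCAM, GATA3 and KRT8 in 5, so the separation of mesenchymal from epithelial markers was partial at this level.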

How the data were processed

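ATAC-seq was analysed in 6 libraries, grouped by their labels as Parental or SAP30-KO1. The authors trimmed single-end reads (Trim Galore 0.4.5), aligned them to hg19 (Bowtie2 2.3.3.1), removed duplicates (Picard) and called peaks (MACS2 2.1.0), per their methods and processing notes. The deposited lists give 1 summit per peak with its score, the −log10 of the q-value; the lowest score was 1.31 to 1.33 in each list. The lists hold no reads, so depth is unknown and no counting interval is given. Peak numbers ran without a gap in each list.

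Scores were ranked as percentiles within their list (Python 3.11.15, pandas 2.3.3, scipy 1.17.1). Summits were extended by 250 bp per side and merged where windows overlapped by at least 1 bp. Spacings were distances over 500 bp between pooled summits with no assembly gap (a run of at least 1000 unknown bases) touching them. Start sites came from GENCODE release 44 mapped to GRCh37. A gene took its highest percentile within 1 kb of any start. Group means were tested by exact permutation of the libraries (20 assignments, two-sided), with Benjamini-Hochberg adjustment over genes with a summit, after tests on simulated data. Named were the 8 genes, loci bounding the stretch and, of the pathway list, genes without a summit or with groups that did not overlap; RB1, PRMT5 and the genes drawn beside CDKN2C were chosen for their role after values were seen. 1 gene of the pathway list is not reported here. Members and lists were chosen with earlier results of these data known. Alternatives were stricter q-values, equal list lengths, other promoter and locus widths, ranks within 9p, a block for replicate number, and omission of each library in turn.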

Additional observations from a re-analysis of the deposited data

How the results depend on the processing

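Of 166 recomputed values, 123 belong to results that are 0 as reported, such as the genes without a summit, and 121 of these were 0 again, which with an empty stretch of this length says little about stability. Of all 166, 159 kept their direction and their side of the threshold or moved by less than the replicate spread, 7 moved further and 0 reversed. With the window 0.5 Mb wider on each side, which takes in the summits of FOCAD and of its neighbour MLLT3, the SAP30-KO1 minus Parental difference was -0.333 summits per library (exact permutation test, p = 1) and -0.0016 percentage points (exact permutation test, p = 0.5). The empty stretch was 4946.02 kb between loci present in all 6 libraries and 4945.39, 4945.6, 4945.1 and 4945.29 kb from the summits of Parental replicate 1, Parental replicate 2, SAP30-KO1 replicate 1 and SAP30-KO1 replicate 2 alone, since these lack the locus at its right edge. With each library left out in turn it was 4180.45 to 4180.51 kb. FOCAD had a higher mean percentile in SAP30-KO1 under all 13 alternatives, by 9.52 (without Parental replicate 2) to 39.4 (without Parental replicate 3). These alternatives reuse the same libraries, so their shared direction says little about stability. The number of the 8 genes with a promoter summit was 1 under each alternative tried for it. The window held 0 loci, so percentiles of its loci, and their alternatives, gave no value. Replicate numbers did not pair the libraries: same-numbered libraries had correlations of -0.0143, -0.0119 and -0.00799 between their deviations from the group means. With replicate number as a block (replicate block), FOCAD differed by 26.8 (exact permutation test over 8 sign changes, p = 0.25, the smallest possible), and no call changed. Summit lists cannot show weakly open sites under the threshold of the peak caller.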
